A study of Homo sapiens with 4 samples.

Results

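The genes described here are the binding proteins of the insulin-like growth factors (IGFs), IGFBP1, IGFBP2, IGFBP3, IGFBP4, IGFBP5, IGFBP6 and IGFBP7, and the receptors IGF1R, IGF2R and INSR. Members were found by symbol, as every probe annotated to these names, and the list was drawn up with earlier results of these data known. This gave 10 genes with 12 probes of 20044 named genes and 47315 probes. IGFBP3 and IGFBP5 had 2 probes each and the other genes 1. The study compared CD166+ with CD166- cells in a pair of established human pancreatic cancer lines, SW1990 and Panc-1. Cells in culture were stained for CD166, the adhesion molecule that the ALCAM gene encodes, and parted with magnetic beads into labelled and unlabelled cells. The labels name no drug, gene transfer or knockdown for any of the 4 populations, which are the CD166+ and CD166- sorts of SW1990 and the same sorts of Panc-1. Each population is a fraction of 1 cell line on 1 Illumina bead array, so no population had a replicate.

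IGF1 and IGF2 are growth factors that signal mainly through IGF1R, a receptor tyrosine kinase close to the insulin receptor INSR. IGF2R, the cation-independent mannose 6-phosphate receptor, takes up IGF2 for degradation in lysosomes and also carries lysosomal enzymes there, without a kinase of its own. The IGFBPs are secreted proteins that hold IGFs away from the receptors or carry them to cells, and proteases that cleave IGFBPs release the growth factors again. In pancreatic cancer the pathway is known for sustaining growth and survival of tumor cells through IRS adaptors, PI3K and AKT.

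The 4 arrays detected 15565 to 16716 probes at a detection p under 0.01, and their mean bead intensity was 325 to 413 before normalization. ALCAM followed the sort, with normalized signals of 293 against 47.3 in the CD166+ and CD166- sorts of SW1990 and 234.5 against 44.3 in those of Panc-1. Among 11640 genes that at least 1 array detected, the 2 Panc-1 arrays correlated at r = 0.989 and the 2 SW1990 arrays at r = 0.827, across genes. The SW1990 CD166- array correlated better with the Panc-1 arrays, at 0.874 and 0.872, than with the SW1990 CD166+ array, and the SW1990 CD166+ array with Panc-1 CD166+ (0.834) slightly better than with SW1990 CD166-. Of 6 epithelial markers 4 or 5 were detected on each array, with CDH1 on none. Within SW1990 (CD166+ first), KRT7 had signals of 1991 and 58.9 and EPCAM 365 and 99.8. Those of KRT19 were 1862 and 741, of KRT18 386 and 166, and of KRT8 4257 and 4691. In Panc-1, KRT7 (212 against 33.5, the latter undetected) and EPCAM (293 against 178) were higher in CD166+ cells. KRT8, KRT18 and KRT19 were higher in CD166- cells there. PTPRC, CD3E, ITGAM and all 3 acinar enzymes were undetected on all 4 arrays. CD68 was detected on all 4 (signals of 387 and 860 in SW1990 and 1203 and 1209 in Panc-1, CD166+ first), PECAM1 in SW1990 CD166+ cells, CDH5 in SW1990 CD166- cells, and SYP on the 3 arrays other than SW1990 CD166+. Of 6 markers of fibroblasts and stellate cells, COL1A1 and ACTA2 were detected in SW1990 CD166+ cells and in both Panc-1 populations. PDGFRB was detected in SW1990 CD166+ cells only, COL1A2 in SW1990 CD166- cells only, and DCN and LUM on no array. In SW1990 CD166+ cells against the Panc-1 sorts (CD166+ first), COL1A1 had signals of 218 against 428 and 346. Those of ACTA2 were 328 against 57.7 and 66.8. The summed signal of the 6 was 762 and 2282 in SW1990 against 587 and 510 in Panc-1, and COL1A2 alone gave 2148 of the 2282. Within SW1990, COL1A1, PDGFRB and ACTA2 were higher in CD166+ cells and COL1A2 in CD166- cells. The part of such markers in the SW1990 values below was not tested.

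In total 7 of the 10 genes were detected on at least 1 array (70%, against 58.1% of all genes), and only IGFBP6 and IGF2R were detected on all 4 (20%, against 40.5%). The other 5 detected genes were each missing from exactly 1 array, always a SW1990 array. IGFBP3, IGFBP7 and IGF1R were undetected in SW1990 CD166- cells alone, a pattern shared by 516 genes (4.43% of the genes detected anywhere). IGFBP2 and IGFBP4 were undetected in SW1990 CD166+ cells alone, as were 498 genes (4.28%). At a detection p under 0.01 the 2 SW1990 populations thus had different sets of detected binding proteins. Both Panc-1 populations had the same set (IGFBP2, IGFBP3, IGFBP4, IGFBP6 and IGFBP7). This grouping was made after the values were seen. Among all genes detected anywhere, absence from 1 Panc-1 array alone was rarer than from 1 SW1990 array, at 1.19% (CD166-) and 0.55% (CD166+). The sets depend on the cutoff. At a detection p under 0.05, IGFBP7 would count as detected in SW1990 CD166- cells and IGFBP1 on both Panc-1 arrays. IGFBP5 (1 of its 2 probes) would count in SW1990 CD166+ and Panc-1 CD166- cells, so the Panc-1 sets would then differ. In bulk RNA, fewer cells with a transcript and less of it per cell cannot be told apart.

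**Figure D1:**
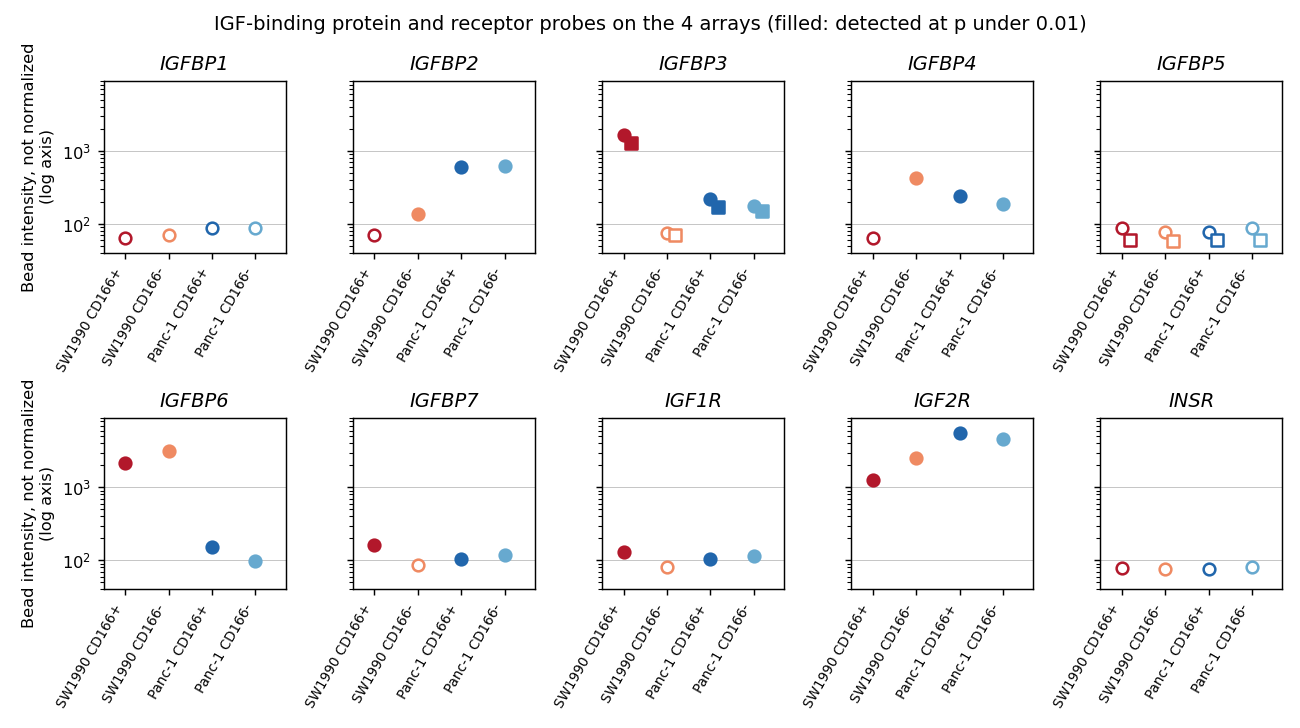
Bead intensity without normalization (y axis, log scale) of each gene on the 4 arrays (x axis), as 1 point an array for each probe, with squares for a further probe of the same gene. Filled points were detected at p under 0.01 and open points were not, and the points of IGFBP3 and IGFBP4 lie far apart in the 2 SW1990 populations and close together in Panc-1.

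Within a line, a gene was counted as higher when its normalized signal was over 2-fold that of the other population and the brighter array detected it. A dim side below detection was set to the lowest signal of detected probes on its array, or to its own signal where this was higher, so that such folds are lower bounds, written as "at least". With 1 array a population no p-value applies. The only error at hand within a line is the spread between probes of the same gene, over probes detected on both arrays of the line. Its pooled SD was 0.43 in SW1990 (1985 genes) and 0.22 in Panc-1 (2296 genes) on the log2 scale, and it holds no variation between cultures. This spread does not cover the SW1990 values of IGFBP2, IGFBP3, IGFBP4, IGFBP7 and IGF1R, each undetected on 1 SW1990 array. In SW1990, 2 of the 7 detected genes (IGFBP3 and IGFBP7) were higher in CD166+ cells, where 13.6% of 10783 genes were, and 3 (IGFBP2, IGFBP4 and IGF2R) were higher in CD166- cells, where 14.2% were, or 5 of 7 either way against 27.7%. In Panc-1, 1 of 7 (IGFBP6) was higher in CD166+ cells, against 0.598% of 10532 genes, and 0 of 7 in CD166- cells, against 0.408%, with 1.01% of all genes either way. The median log2 difference (CD166+ over CD166-, as measured) of the 7 genes was -0.99 in SW1990 and 0.27 in Panc-1, against -0.0036 and -0.0021 over all genes. Median sizes without sign were 1.54 and 0.33, against 0.65 and 0.17 over all genes.

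**Figure D2:**
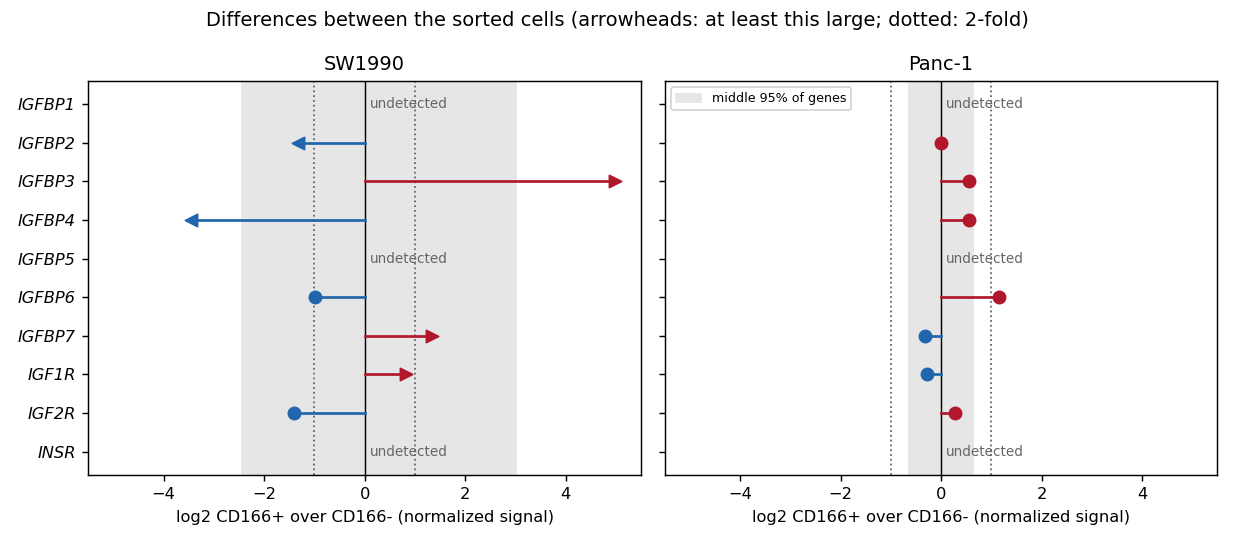
Difference between CD166+ and CD166- cells (x axis, log2 of normalized signal, positive where CD166+ is higher) for each gene in SW1990 (left) and Panc-1 (right), 1 array against 1 array. Arrowheads mark lower bounds, dotted lines 2-fold and the grey band the middle 95% of all genes as measured, and in SW1990 only IGFBP3 and IGFBP4 lie outside the band while in Panc-1 only IGFBP6 does.

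IGFBP3 and IGFBP4 showed the widest gaps between the SW1990 populations, in opposite directions, and IGFBP6 and IGF2R were the genes measured on every array. The 250 bases before the annotated start of these 4 genes are shown for that reason, from RefSeq on build GRCh38.p14, where 8 of the 10 genes were listed. Each is written 5′ to 3′ in the direction of the gene, and capitals mark matches on either strand to the TATA box letters TATAAA and the variant TATATA, to the GC box core GGGCGG and to the E box CACGTG, with overlapping matches counted separately.
IGFBP3, chr7:45921273-45921522 (-): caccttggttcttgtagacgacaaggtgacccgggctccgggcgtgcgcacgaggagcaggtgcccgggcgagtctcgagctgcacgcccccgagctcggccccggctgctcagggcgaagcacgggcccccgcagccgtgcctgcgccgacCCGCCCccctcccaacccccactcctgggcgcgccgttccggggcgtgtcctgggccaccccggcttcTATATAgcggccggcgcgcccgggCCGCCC
IGFBP4, chr17:40443200-40443449 (+): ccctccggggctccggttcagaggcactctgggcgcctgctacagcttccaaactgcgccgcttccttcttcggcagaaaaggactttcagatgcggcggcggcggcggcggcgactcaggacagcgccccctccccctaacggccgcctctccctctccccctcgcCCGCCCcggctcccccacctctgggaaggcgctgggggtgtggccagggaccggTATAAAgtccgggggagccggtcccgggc
IGFBP6, chr12:53097417-53097666 (+): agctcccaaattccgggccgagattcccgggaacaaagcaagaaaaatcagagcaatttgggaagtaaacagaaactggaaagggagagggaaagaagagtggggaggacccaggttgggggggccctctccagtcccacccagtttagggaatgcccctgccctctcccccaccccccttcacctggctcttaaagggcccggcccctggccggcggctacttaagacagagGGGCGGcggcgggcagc
IGF2R, chr6:159968832-159969081 (+): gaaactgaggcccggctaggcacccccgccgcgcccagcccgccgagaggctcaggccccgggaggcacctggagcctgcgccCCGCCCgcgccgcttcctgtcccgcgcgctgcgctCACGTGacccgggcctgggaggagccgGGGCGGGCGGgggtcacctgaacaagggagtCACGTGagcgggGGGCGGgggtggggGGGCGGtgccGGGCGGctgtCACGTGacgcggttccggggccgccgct
The IGFBP3 window held 1 TATATA, found in 3.74% of 34943 windows of that length, and 2 GGGCGG, a number reached in 24.3%. The IGFBP4 window held 1 TATAAA (10.8% of windows) and 1 GGGCGG (42.5%), and the IGFBP6 window 1 GGGCGG. The IGF2R window held 6 GGGCGG, where 7.6% of windows held at least 4, and 3 CACGTG, where 0.0801% held at least 3. These are matches of letters and no measure of binding.

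IGFBP3, the main carrier of IGFs in blood, where it forms a complex with IGF and IGFALS, had a bead intensity of 1622 in SW1990 CD166+ cells and 73.6, undetected, in SW1990 CD166- cells. In Panc-1 it read 219 in CD166+ and 172 in CD166- cells. It was thus bright in 1 population, modest in both Panc-1 populations and missing in SW1990 CD166- cells. After normalization CD166+ exceeded CD166- cells by at least 31.5-fold for IGFBP3 in SW1990 (log2 4.98) and by 1.47-fold in Panc-1 (log2 0.56). The SW1990 log2 value of IGFBP3 was smaller, though still far past the threshold, without background correction (3.83), in the scaled table (3.82) and with an offset of 50 (4.15). The bound therefore does not hold in these settings. With median scaling (5.33) and at a detection p under 0.05 (5.29) the value was larger. The other IGFBP3 probe read 1270, 70.5 (undetected), 167.5 and 148 in the same order, which gave at least 25.0-fold in SW1990 and 1.25-fold in Panc-1. Both probes put CD166+ cells higher in both lines, by little in Panc-1, where IGFBP3 lay inside the range of -0.63 to 0.64 that held 95% of all genes. When the sorts were compared across lines with limma, the log2 difference of IGFBP3 was 3.08 (SE 1.24 over 2 lines, adjusted p = 0.922).

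IGFBP4, which holds IGFs away from their receptor and is cut by the protease PAPPA, ran the other way in SW1990. Its intensity was 64.1 (undetected) in SW1990 CD166+ and 428 in SW1990 CD166- cells, and 239 and 188 in Panc-1 CD166+ and CD166- cells. In SW1990 the CD166- signal was at least 11.0-fold the CD166+ signal (log2 -3.45), and in Panc-1 the CD166+ signal was 1.47-fold the CD166- signal (log2 0.55). The SW1990 log2 value of IGFBP4 was -2.38 without background correction, -2.57 in the scaled table and -2.66 with an offset of 50, each past the threshold but less than the bound. The 2 SW1990 values enclosed both Panc-1 values, for IGFBP4 as for IGFBP3. In CD166+ cells Panc-1 was at least 4.70-fold above SW1990, and in CD166- cells SW1990 was 3.42-fold above Panc-1. Across lines, limma gave IGFBP4 a log2 difference of -1.85 (SE 1.18, adjusted p = 0.922).

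IGFBP2, which binds IGF2 more tightly than IGF1, was brighter in Panc-1 than in SW1990. It read 70.2 (undetected) and 137 in the CD166+ and CD166- sorts of SW1990, and 590 and 613 in those of Panc-1. Within SW1990 the CD166- signal exceeded the CD166+ signal by at least 2.52-fold (log2 -1.33), and within Panc-1 the log2 difference was 0.0025. Without background correction, with an offset of 50 and in the scaled table the SW1990 difference of IGFBP2 was under 2-fold (log2 -0.72, -0.86 and -0.93). Panc-1 exceeded SW1990 by at least 14.1-fold among CD166+ cells and by 5.58-fold among CD166- cells.

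IGFBP6, which prefers IGF2 to IGF1, was far brighter in SW1990 than in Panc-1. Its intensity was 2136 and 3166 in SW1990 (CD166+ first), with 153 and 98.4 in the same sorts of Panc-1, and both SW1990 values lay far above both Panc-1 values. The normalized signal in SW1990 was 18.2-fold that of Panc-1 among CD166+ cells and 80.4-fold among CD166- cells. Within SW1990 IGFBP6 was 1.99-fold higher in CD166- cells (log2 -0.99), just under the threshold, and within Panc-1 it was 2.22-fold higher in CD166+ cells (log2 1.15). Across lines these cancelled, at a log2 difference of 0.078 between sorts (limma, SE 0.62, adjusted p = 0.990).

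Some signal of genes bright in SW1990 CD166+ cells was also found on the Panc-1 CD166+ array. A set of 35 genes had a signal above 1000 on the SW1990 CD166+ array and no detection on the Panc-1 CD166- array. Of these, 33 were detected in Panc-1 CD166+ cells. For each of the 35, the Panc-1 CD166- signal was first taken from the Panc-1 CD166+ signal. This excess was a median of 3.02% (quartiles 2.07% and 3.95%) of the SW1990 CD166+ signal less the offset of 16. The mirror group, equally bright on the SW1990 CD166+ array but missing from the Panc-1 CD166+ array, held 2 genes. Their excess of Panc-1 CD166- over Panc-1 CD166+ signal had a median of -0.60%. IGFBP6, detected on all 4 arrays, is in neither group. Choosing genes for being undetected on 1 Panc-1 array by itself favours a higher value on the other, so the share may be too high and the mirror group of 2 genes is too small to gauge this. The median share was then subtracted from the Panc-1 CD166+ array only. IGFBP6 in Panc-1 fell from 2.22-fold to 1.02-fold (log2 0.022) and IGFBP3 to a log2 difference of 0.16. The share is itself an excess of Panc-1 CD166+ over CD166- signal. A fall was thus built in for genes bright in SW1990 CD166+ cells, and the subtraction cannot decide whether their Panc-1 differences are real. A share of 0.554% was enough to bring IGFBP6 to 2-fold. How this share was measured was settled after the data were seen, and the source of the shared signal was not tested. The Panc-1 value of IGFBP6 was also under 2-fold without background correction (log2 0.62), with an offset of 50 (0.75) and in the scaled table (0.64).

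IGFBP7, a relative that binds IGFs only weakly, was dim on every array. It read 163 and 85.8 (the latter undetected) in CD166+ and CD166- cells of SW1990, then 106 and 119 in Panc-1. The SW1990 gap was at least 2.55-fold (log2 1.35), with CD166+ cells higher, and Panc-1 differed by a log2 of -0.33. This SW1990 call was lost without background correction (log2 0.74), with an offset of 50 (0.89) and in the scaled table (0.50). IGFBP1, an insulin-regulated protein of liver, read 63.2, 69.7, 86.9 and 88.1 and was undetected on all 4 arrays. IGFBP5 was undetected on all 4 with both probes, at 76.0 to 88.3 and at 57.1 to 59.7. In the genome IGFBP1 neighbours IGFBP3 on chromosome 7 and IGFBP2 neighbours IGFBP5 on chromosome 2, with 0 protein-coding genes between either pair. In each pair only 1 gene was detected at a detection p under 0.01.

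Of the receptors, only IGF2R was detected on every array. Its intensity was 1259 in SW1990 CD166+ cells, 2503 in SW1990 CD166- cells, 5533 in Panc-1 CD166+ cells and 4612 in Panc-1 CD166- cells, so SW1990 CD166+ cells were lowest and both Panc-1 populations highest. In SW1990 the normalized CD166- signal was 2.67-fold the CD166+ signal (log2 -1.42), inside the range of -2.45 to 3.02 that held 95% of all genes there. In Panc-1 the log2 difference was 0.27. Panc-1 exceeded SW1990 by 5.89-fold among CD166+ cells and by 1.84-fold among CD166- cells. Between sorts across lines the log2 difference was -0.57 (limma, SE 0.53, adjusted p = 0.922).

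IGF1R, the signalling receptor, stood close to background on every array. It read 129 and 81.1 (the latter undetected) in SW1990, CD166+ first, and 104 and 115 in the same order in Panc-1. CD166+ cells of SW1990 were higher by at least 1.77-fold (log2 0.83), under the threshold, and Panc-1 differed by a log2 of -0.28. With the undetected side as measured, the SW1990 log2 difference of IGF1R was 1.20, past the threshold. INSR, the insulin receptor, read 75.5 to 80.9 and was undetected on all 4 arrays.

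Across the lines, limma with the cell line as a block called 0 of 10367 genes between CD166+ and CD166- cells at an adjusted p under 0.05 (0% called), 160 had an unadjusted p under 0.05, and the methods' t-test also called 0. The sorted antigen ALCAM itself had an adjusted p of 0.922 in this limma fit, with a log2 difference of 2.52 (SE 0.36). Of the 7 genes fitted, the 2 lines agreed in sign for IGFBP3 alone, whereas IGFBP2 (at 0.0025 in Panc-1), IGFBP4, IGFBP6, IGFBP7, IGF1R and IGF2R had opposite signs. The lone residual degree of freedom limits this fit, and 2 pairs allow no exact two-sided permutation p under 0.5.

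Between the lines the same model called 84 of 10367 genes (0.81%) and none of the 7. IGFBP6 came nearest, with SW1990 above Panc-1 by a log2 of 5.26 (SE 0.62, limma adjusted p = 0.0593), and its adjusted p ran from 0.00547 to 0.284 over the alternatives, under 0.05 in 5 of them. IGFBP2 followed in the other direction at -3.48 (SE 0.59, adjusted p = 0.105, limma), and IGF2R at -1.72 (SE 0.53, adjusted p = 0.242, limma). The other 4 genes had limma adjusted p-values of 0.840 to 0.952. Both SW1990 arrays lay over 2-fold above both Panc-1 arrays for IGFBP6, as for 2.31% of 11640 genes, and both Panc-1 arrays lay over 2-fold above both SW1990 arrays for IGFBP2, as for 5% of genes. For IGFBP3, IGFBP4, IGFBP7 and IGF1R the order of the lines depended on the sort, with SW1990 higher in 1 sort and Panc-1 in the other.

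The genes closest in pattern to IGFBP6 and IGF2R were sought among 8113 other genes detected on all 4 arrays, by the distance between log2 signals after each gene's mean over the arrays was removed. For IGFBP6 these were TRIP6, an adaptor of focal adhesions, at 0.67, the long non-coding RNA UCA1 at 1.35, and TBC1D2, a regulator of Rab proteins, at 2.37. TRIP6 was high in both SW1990 populations (log2 signals 10.86 and 11.09) and low in Panc-1 (6.77 and 5.43). Like IGFBP6, it was higher in CD166+ than in CD166- cells of Panc-1. It was picked for its likeness to IGFBP6 over these same arrays, so this is no separate evidence of a Panc-1 difference. TRIP6 was also bright in SW1990 CD166+ cells, and its Panc-1 values are given without the shared signal subtracted. For IGF2R they were SVIL, which links actin to membranes, at 0.11, ARHGAP32 at 0.14, and ANKRD33 at 0.15. The distances are over 4 arrays only and are given as a description.

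Cathepsin D (CTSD), a lysosomal protease that reaches lysosomes on mannose 6-phosphate receptors, ranked 8 of 8113 in likeness to IGF2R, at a distance of 0.21. It was looked up after its values were seen. CTSD read 408, 876, 1682 and 1444 on the 4 arrays (SW1990 first, CD166+ before CD166- within a line), and its populations ranked as for IGF2R. Its CD166- signal was 2.89-fold the CD166+ signal in SW1990 (log2 -1.53), and Panc-1 differed by a log2 of 0.29. M6PR, the cation-dependent mannose 6-phosphate receptor, ranked 4415, and its log2 differences were -0.54 in SW1990 and 0.24 in Panc-1. None of the 5 genes of mannose 6-phosphate sorting (M6PR, GNPTAB, GNPTG, NAGPA and FURIN) was over 2-fold apart in either line.

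**Figure D3:**
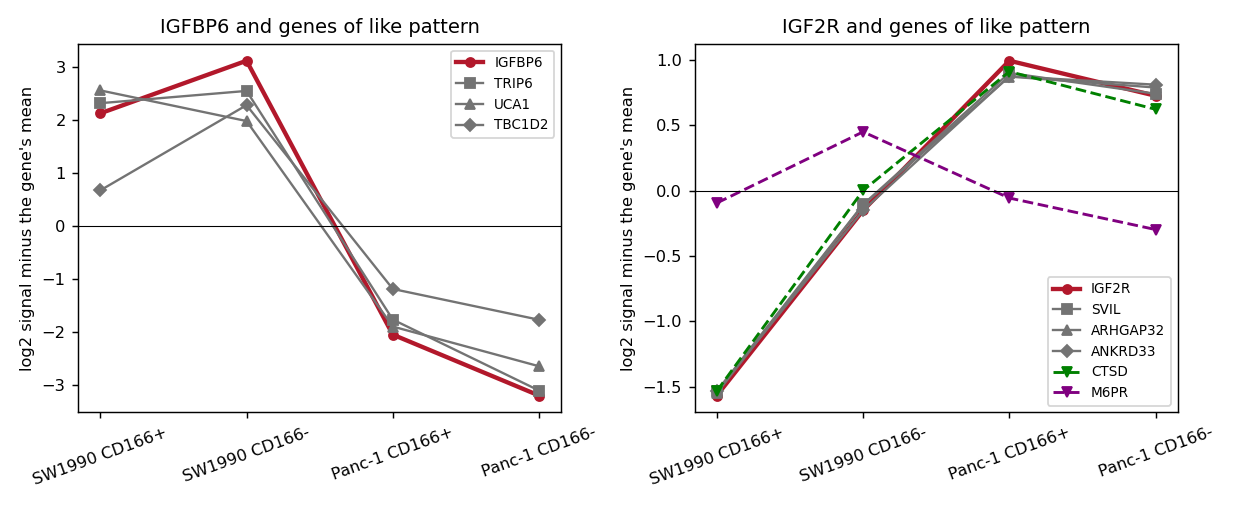
Log2 signal minus the gene's own mean (y axis) on the 4 arrays (x axis) for IGFBP6 (left) and IGF2R (right) in red, the genes of nearest pattern in grey, and CTSD and M6PR as dashed lines, 1 point an array. CTSD runs along IGF2R at a distance of 0.21, and M6PR does not, at 2.16.

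The ligands were not detected at p under 0.01. IGF1 read 70.3 to 85.7, IGF2 72.7 to 88.1 at the brightest of its 3 probes and INS, insulin, 74.2 to 91.0, all undetected on all 4 arrays, as was IGFALS, the third partner of the circulating complex. At a detection p under 0.05, IGF2 (2 of 3 probes) would count as detected on both Panc-1 arrays and INS on the Panc-1 CD166+ array. An undetected probe gives an upper bound on this array and no statement on the protein or on IGFs in the culture medium.

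Of the proteases that cut IGFBPs and the inhibitors of such proteases, 4 of 8 were detected in SW1990, with 2 higher in each direction (13.6% and 14.2% of all genes), and 6 of 8 in Panc-1, with none over 2-fold (1.01% of all genes). PAPPA, the protease that cuts IGFBP4, read 82.0 (undetected), 179, 140 and 147 in this array order, which put SW1990 CD166- cells at least 3.73-fold above SW1990 CD166+ cells. PAPPA and IGFBP4 were thus undetected on the same array. STC2, an inhibitor of PAPPA, read 321, 71.4 (undetected), 750 and 628 and ran the other way in SW1990, by at least 5.91-fold. HTRA1, a serine protease that cuts IGFBPs, read 846, 248, 130 and 170 and was 3.16-fold above in SW1990 CD166+ cells. STC2 and HTRA1 were undetected or lower in the SW1990 population in which PAPPA was higher. CTSD, also on this list, ran in the direction of PAPPA in SW1990, with CD166- cells 2.89-fold higher. In Panc-1 the log2 differences were -0.071 for PAPPA, 0.36 for STC2 and -0.59 for HTRA1.

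Downstream of the receptors, 7 of 10 adaptors were detected in SW1990, of which CD166+ cells had 1 higher and CD166- cells 2, against 27.7% of all genes either way. Panc-1 had 6 of 10, none over 2-fold. IRS1, the docking protein that IGF1R and INSR phosphorylate, read 65.0 (undetected), 213, 162 and 164 on the 4 arrays in the same order. IRS2, its relative, read 356, 121, 123 and 115. The 2 docking proteins differed in opposite directions in SW1990, where CD166- cells had at least 4.66-fold more IRS1 and CD166+ cells 3.50-fold more IRS2, and in Panc-1 their log2 differences were 0.021 and 0.21. For the adaptor SHC1, CD166- cells of SW1990 had 2.31-fold the signal of CD166+ cells. Another SHC1 probe, dimmer but detected on all 4 arrays, gave 1.15-fold in the same direction, under the threshold. In the PI3K, AKT, FOXO and mTOR branch 14 of 18 listed genes were named on the array, 12 were detected in SW1990 and 13 in Panc-1. Only AKT1 was over 2-fold apart, by 2.35-fold in SW1990 with CD166- cells above, or 1 of 12 against the same 27.7%. Another bright AKT1 probe gave 1.97-fold in the same direction, just under the threshold.

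Among the remaining lists, IGF2BP2, which binds the IGF2 mRNA among others, had the widest gap, with intensities of 109, 1120, 1440 and 1265. CD166- cells of SW1990 had 21.4-fold the signal of CD166+ cells (log2 -4.42). It differed by a log2 of 0.25 in Panc-1, and it was detected on all 4 arrays. IGF2BP1 and IGF2BP3 were under 2-fold apart in both lines. IGFLR1, a receptor of the tumor necrosis factor family, had 3.30-fold more signal in CD166+ cells of SW1990. Over the 7 lists, 33 of 48 genes on the array were detected in SW1990, 4 of them higher in CD166+ cells and 6 in the others, close to the 27.7% of all genes either way. In Panc-1 35 of 48 were detected with 0 in either direction, where 1.01% of all genes were. The median log2 difference of these genes was -0.37 in SW1990 and 0.0020 in Panc-1.

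**Figure D4:**
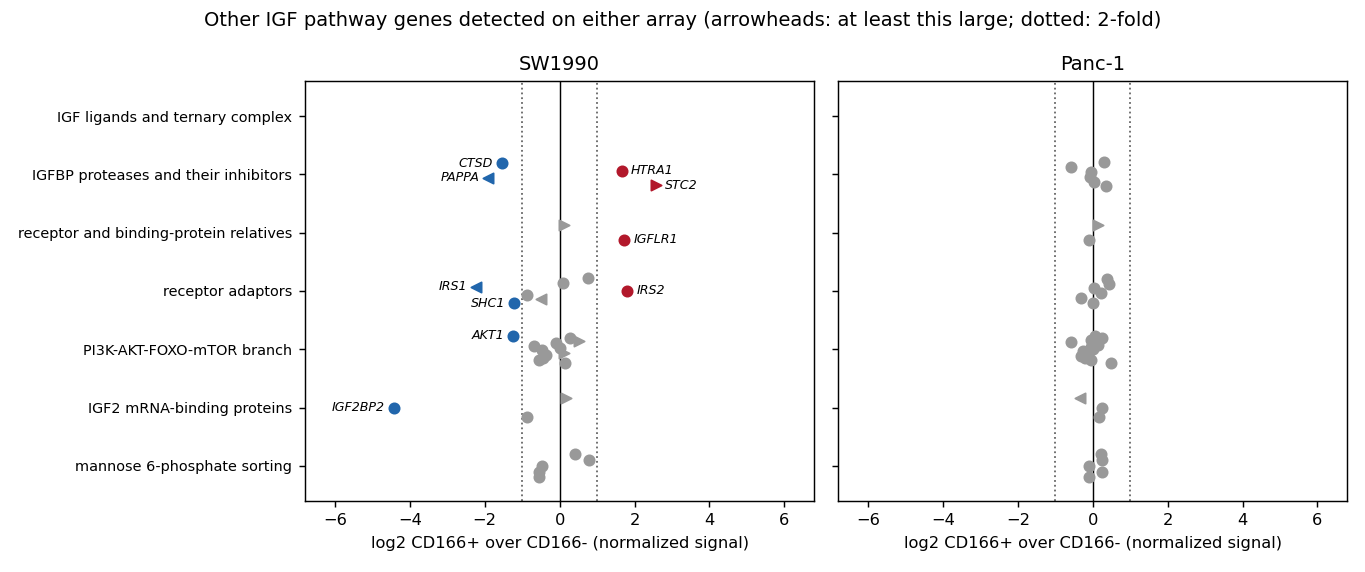
Difference between CD166+ and CD166- cells (x axis, log2 of normalized signal, positive where CD166+ is higher) of the other pathway genes detected on either array of a line, by list (y axis), for SW1990 (left) and Panc-1 (right), 1 point a gene. Coloured and named points are over 2-fold apart with arrowheads as lower bounds, 10 in SW1990 and 0 in Panc-1, and no ligand was detected.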

How the data were processed

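Total RNA of the 4 sorted populations was hybridised to Human HT-12v4 bead arrays. For every probe and array the authors deposited the mean bead intensity, not normalized, summarised with BeadStudio 3.2.3 and with no background subtracted, and a detection p-value per probe, taken here to be against the array's own negative controls. They also deposited a scaled intensity table in which 1 factor per array brings the means together, and how it was made is not given in the sources used here. Probes were named from the platform's annotation (30111 with 1 gene, 8 with several, 17196 with none), and symbols were checked against RefSeq genes of GRCh38.p14, with 27 Entrez numbers not found.

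Background was corrected by neqc (limma 3.58.1, R 4.3.3) on the not normalized intensities, from the detection p-values, with an offset of 16 and quantile normalization. Genes were represented by their brightest probe. Array number, 1 a population, limits the precision. Across lines or sorts, a limma model (lmFit, eBayes) took the measured signals of genes detected on at least 2 of 4 arrays, with the line or sort as the block and 1 residual degree of freedom. Benjamini-Hochberg adjustment was over all genes fitted. Arrays are paired by their shared cell line. The deviations of same-line arrays from the mean of their sort correlated at r = 0.42 over genes. With 2 lines this value is the same for both by construction. It is the correlation, between the 2 sorts, of the difference between lines.

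The 10 genes and the 7 pathway lists were chosen with earlier results of these data known. Named are all 10 genes, ALCAM, up to 4 genes of each list over 2-fold apart in a line, those needed to account for a list, and the 3 genes nearest in pattern to each gene detected on all 4 arrays, for which only 2 qualified. The settings varied were the background (none, or an offset of 50), the scaling (by medians, or as in the scaled table), a detection p under 0.05, undetected sides as measured, no filter, the mean over probes, thresholds of 1.5-fold and 3-fold, subtraction of the shared signal, no block, an intensity trend, a t-test, and each line or sort left out.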

Additional observations from a re-analysis of the deposited data

Results flagged for a closer look

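For 5 genes over 2-fold apart in at least 1 line, the CD166+ and CD166- cells differed in opposite directions in the 2 lines, in each case 1 array against 1 array, and this difference between lines was not tested. The log2 difference (CD166+ over CD166-) was -1.33 in SW1990 and 0.0025 in Panc-1 for IGFBP2, where the Panc-1 value is near 0. That Panc-1 value turned to -0.023 with median scaling and -0.050 in the scaled table, the direction of SW1990. It was -3.45 and 0.55 for IGFBP4, -0.99 and 1.15 for IGFBP6, 1.35 and -0.33 for IGFBP7, and -1.42 and 0.27 for IGF2R. The SW1990 values of IGFBP2, IGFBP4 and IGFBP7 are bounds. IGF1R also had opposite signs (0.83 and -0.28) but was under 2-fold in both lines.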

How the results depend on the processing

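The SW1990 calls of IGFBP3 and IGFBP4 held under every alternative run, and that of IGF2R under all but the 3-fold threshold. IGFBP7 and IGFBP2 lost their SW1990 calls without background correction, with an offset of 50, in the scaled table and at 3-fold. The genes higher in CD166+ cells of SW1990 thus went from 2 to 1 in these 4 settings. Those higher in CD166- cells went from 3 to 2 in the first 3 of them and to 1 at 3-fold. IGFBP6 in Panc-1 went from 1 to 0 in the same 4 settings and with the shared signal subtracted. Signals near background limit these genes. Other settings added calls in SW1990. IGF1R joined the genes higher in CD166+ cells, making 3, at a detection p under 0.05, with undetected sides as measured, with no filter and at 1.5-fold. IGFBP6 joined those higher in CD166- cells at 1.5-fold, making 4.

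Over all genes, the count over 2-fold apart in SW1990 was 2992, with 1976 without background correction, 5276 at 1.5-fold and 1393 at 3-fold. In Panc-1 it was 106, with 42 without background correction, 57 with an offset of 50, 36 in the scaled table, 544 at 1.5-fold and 28 at 3-fold. The share of these genes higher in CD166+ cells was 48.9% in SW1990, 66.0% with median scaling (which moved the median of all genes by 0.27 on the log2 scale, the scaled table by -0.13), and 59.4% in Panc-1, with 78.6%, 70.2% and 75% without background correction, with an offset of 50 and in the scaled table, 89.3% at 3-fold, 49.3% at 1.5-fold and 41.9% with the shared signal subtracted.

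The count of genes called between lines was 84, and 188 with no replicate block, the pairing by line and sort being dropped. It was 4 with the t-test, 0 with no filter, 135 for genes detected on all 4 arrays, 236 over all probes, 13 without background correction, 0 with an offset of 50, 29 with median scaling and 309 in the scaled table. IGFBP6 passed 0.05 with no replicate block (adjusted p = 0.0468, limma), with an intensity trend (0.0491), among genes detected on all 4 arrays (0.00559), over all probes (0.0276) and in the scaled table (0.00547), where IGFBP2 also passed (0.0205). Between sorts, 0 genes were called with or without the block, and under every other alternative. The cause of these changes was not tested.

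The log2 difference of IGFBP6 between sorts turned to -0.17 without background correction, -0.12 with an offset of 50 and -0.14 in the scaled table, and that of IGFBP7 between lines to -0.037 in the scaled table. With each line left out, the difference between sorts ran from -2.00 to 0.0025 for IGFBP2, -4.24 to 0.55 for IGFBP4, -0.99 to 1.15 for IGFBP6, -0.33 to 1.54 for IGFBP7, -0.28 to 1.20 for IGF1R and -1.42 to 0.27 for IGF2R. With each sort left out, the difference between lines ran from -2.03 to 3.01 for IGFBP3, -3.02 to 1.77 for IGFBP4, -0.74 to 1.13 for IGFBP7 and -0.83 to 0.65 for IGF1R.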
